A study of Mus musculus with 6 samples.

Results

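Amino acid transporter genes were examined in splenic CD4+ T cells kept with icilin or with its solvent. The set was a list of 34 mouse genes of the solute carrier families Slc1, Slc3, Slc6, Slc7, Slc16, Slc25, Slc36, Slc38 and Slc43, grouped by transport system. For each gene the brightest probe set with that single gene symbol was taken, which gave values for 33 of the 34 among 22180 genes on the array. The probe set for Slc6a9, a glycine carrier, is shared with a second gene, so it has no value of its own here. Icilin is a synthetic cooling agent known to open the cation channels TRPM8 and TRPA1. CD4+ T cells from wild-type C57BL/6 female mice about 8 weeks old were activated for 24 h with antibodies to CD3 and CD28 at 10 µg/mL each. The vehicle group then received dimethyl sulfoxide (DMSO) for 24 h and the icilin group 100 µM icilin in DMSO, with 3 arrays in each group and cells of the same 3 mice in both. All cells were in RPMI medium with 10% fetal bovine serum, 2 mM L-glutamine, nonessential amino acids and 500 µM 2-mercaptoethanol.

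Amino acids enter a cell through carriers that differ in substrate, ion coupling and whether they exchange one amino acid for another. Activated T cells are known to raise several of them, among them the leucine exchanger made of the Slc7a5 light chain and the Slc3a2 heavy chain, and the glutamine carrier Slc1a5. When amino acids run short or stress kinases are active, cells make the transcription factor ATF4, which binds C/EBP-ATF response elements in the genes of several amino acid transporters, Slc7a11 among them.

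The sequence before the Slc7a11 start is shown because this gene had the largest difference of the set and is a textbook case of such an element. For comparison, 3 further stretches are given: Slc7a7, which also held a match, the heavy chain gene Slc3a2, and Slc1a2, which was lower with icilin. Each is the 250 bases before a RefSeq start site (GRCm38.p6), read 5′ to 3′ on the strand of the gene. Capitals mark the core TGATGNAA, searched on both strands. Only the 250 bases before each start site were searched, so a stretch without capitals says nothing about elements elsewhere in the gene.
Slc7a11, chr3:50443614-50443863, minus strand: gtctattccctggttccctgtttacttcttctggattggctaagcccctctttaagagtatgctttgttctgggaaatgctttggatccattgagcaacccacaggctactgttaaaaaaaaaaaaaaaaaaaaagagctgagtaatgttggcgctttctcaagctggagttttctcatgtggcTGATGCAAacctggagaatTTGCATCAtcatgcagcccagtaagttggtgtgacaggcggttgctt
Slc7a7, chr14:54417945-54418194, minus strand: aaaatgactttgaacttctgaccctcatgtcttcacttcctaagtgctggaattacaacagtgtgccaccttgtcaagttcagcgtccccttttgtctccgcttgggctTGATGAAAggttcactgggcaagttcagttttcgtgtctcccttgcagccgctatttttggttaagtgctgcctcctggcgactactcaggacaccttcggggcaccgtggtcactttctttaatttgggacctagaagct
Slc3a2, chr19:8713898-8714147, minus strand: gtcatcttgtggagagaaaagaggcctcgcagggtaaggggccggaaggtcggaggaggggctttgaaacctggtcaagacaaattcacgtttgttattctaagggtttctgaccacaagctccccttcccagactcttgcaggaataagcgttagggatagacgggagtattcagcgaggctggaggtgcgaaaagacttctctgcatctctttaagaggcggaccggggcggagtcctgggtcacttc
Slc1a2, chr2:102706188-102706437, plus strand: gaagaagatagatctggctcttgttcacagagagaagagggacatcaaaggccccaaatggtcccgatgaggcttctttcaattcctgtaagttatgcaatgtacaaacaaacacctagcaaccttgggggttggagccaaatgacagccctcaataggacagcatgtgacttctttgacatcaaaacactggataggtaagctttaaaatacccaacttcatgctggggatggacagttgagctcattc

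The Slc7a11 stretch held the core 2 times, as TGATGCAA at positions -66 to -59 from the start and as its reverse complement TTGCATCA at -47 to -40. At least 1 window of this length held the core for 3.91% of all 27025 genes and for 2 of the 27 members that had a window, Slc7a11 and Slc7a7. The Slc7a7 stretch shown held TGATGAAA at -141 to -134. Another Slc7a7 window, not shown, held TGATGCAA at -243 to -236, the same letters as in Slc7a11. Some genes have several windows (41 for the 27 members, 32851 for all 27025 genes). Of the 11 members with an adjusted p under 0.1, 7 had a window. Slc7a3, Slc7a5, Slc38a1 and Slc38a3 had none and were not searched. The core TGANNNNGC of the antioxidant response element, bound by NRF2, was far more common. It was in 35.2% of all windows, and in at least 1 window of 38.7% of all genes and of 17 of the 27 members. A gene with more windows has more room for a match, so the shares by gene are not on equal terms. In Slc7a11 the antioxidant core matched at -97 to -89 and at -45 to -37, the latter overlapping the second C/EBP-ATF match. The core ACGTG of the hypoxia response element was found for 18.5% of all genes and for 7 of the 27 members. Among the 7 members with a window and an adjusted p under 0.1, it was found for Slc3a2. A match is a run of letters, not a measured binding site.

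Of the 33 measured genes, 4 changed by at least 1.5-fold at an adjusted p under 0.1, the limits of the study. The cystine carrier gene Slc7a11 and the cationic amino acid carrier gene Slc7a3 rose, and the glutamate carrier gene Slc1a2 and the glutamine carrier gene Slc38a3 fell. Of all genes tested, 1.40% were called by the same limits, 0.370% higher and 1.03% lower. Without the fold limit, 8 members were higher and 3 lower, against 2.27% and 3.00% of all genes (5.28% in either direction). The 8 were Slc7a11, Slc7a3, Slc1a4, Slc7a5, Slc16a10, Slc3a2, Slc38a2 and Slc38a1, and the 3 were Slc38a3, Slc1a2 and Slc43a2. The icilin arrays lay wholly above or wholly below the vehicle arrays in 15 members (10 above, 5 below), a separation seen in 24.1% of all genes (13.6% above, 10.5% below). Of the 33 probe sets 22 were brighter than the median gene, and among all such brighter genes 36.8% were separated, 3.89% were higher and 5.13% lower at an adjusted p under 0.1. Of these 22 members, 8 were higher and 1 lower at that limit. The 15 separated members include Slc1a2 and Slc38a3, which were dimmer than the median gene. The median log2 difference was 0.12 over the members and 0.01 over all genes. Levels are log2 values of bulk RNA, in which fewer cells of a type and less RNA per cell cannot be told apart.

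**Figure D1:**
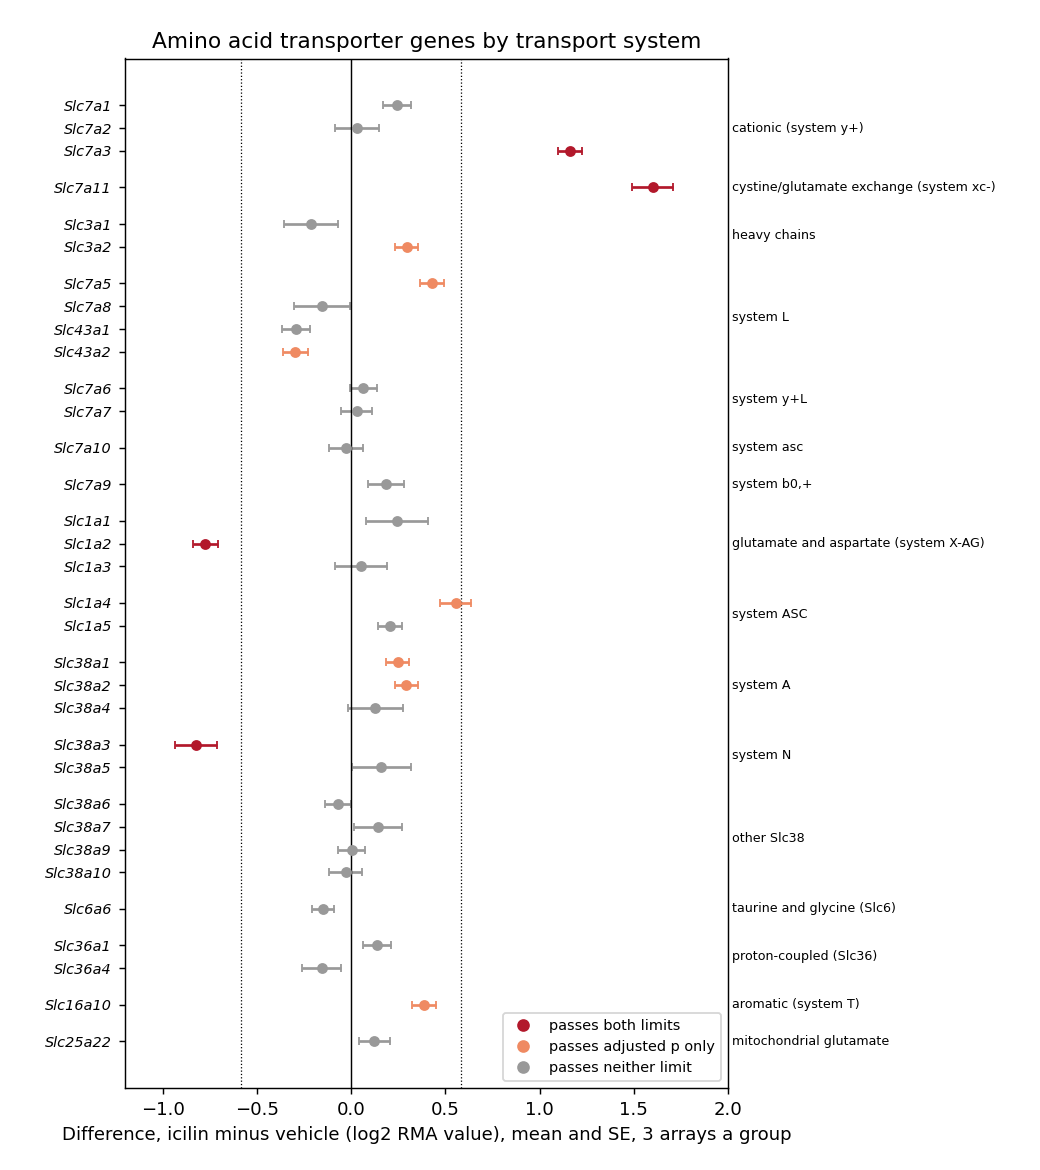
Log2 difference between icilin and vehicle arrays (x axis, mean and SE, 3 arrays a group) for the 33 measured transporter genes, by transport system; dotted lines mark 1.5-fold. Slc7a11 and Slc7a3 stand to the right of the lines, Slc1a2 and Slc38a3 to the left, and Slc1a4 (0.55) lies just inside.

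Slc7a11 encodes the light chain of system xc-, which imports cystine in exchange for glutamate and so supplies cysteine for glutathione. Its log2 level was 6.42, 6.31 and 6.42 on the icilin arrays and 4.94, 4.55 and 4.85 on the vehicle arrays. Every icilin array was above every vehicle array by more than the whole spread within either group. The gene was 3.03-fold higher with icilin, a log2 difference of 1.60 ± 0.11 (SE, n = 3 a group; limma adjusted p = 0.00102). A second probe set annotated to Slc7a11 read 2.31, 2.07 and 2.11 with icilin and 2.15, 2.10 and 2.08 with vehicle. It lay at brightness percentile 11.9 of all probe sets and differed by 0.06 ± 0.09, with overlapping groups. Averaged with the first, it brought the difference of the gene to 0.83, still past both limits.

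The heavy chain gene Slc3a2, whose product carries the light chains Slc7a5, Slc7a6, Slc7a7, Slc7a8, Slc7a10 and Slc7a11 to the surface, differed less. It read 11.14, 11.11 and 11.12 with icilin and 10.88, 10.82 and 10.78 with vehicle. The groups did not overlap, and the difference of 0.30 ± 0.06 (1.23-fold, adjusted p = 0.0541) was short of 1.5-fold. Slc3a1, the heavy chain of kidney and gut cystine uptake, had a dim probe set with values of 3.40 to 3.87 with icilin and 3.61 to 3.98 with vehicle, and did not pass (-0.21 ± 0.14). Its light chain partner Slc7a9, dim as well, stood at 0.19 ± 0.09 (adjusted p = 0.378).

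Among the carriers of arginine and lysine (system y+), Slc7a3 was the one that rose. Its values were 8.71, 8.68 and 8.70 with icilin against 7.47, 7.56 and 7.57 with vehicle. The SD was 0.02 in the icilin and 0.05 in the vehicle group, and the gene was 2.24-fold higher (log2 difference 1.16 ± 0.06, adjusted p = 6.23e-04). Slc7a1, the widely expressed carrier of this system, read 9.87, 9.78 and 9.87 with icilin and 9.49, 9.62 and 9.68 with vehicle. Those groups did not overlap either, but the difference of 0.24 ± 0.07 had an adjusted p of 0.160. Slc7a2, the inducible carrier known from macrophages, was dim, with overlapping groups and a difference of 0.03 ± 0.12.

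System L moves leucine, isoleucine, phenylalanine and other large neutral amino acids, and its members did not move together. Slc7a5, the light chain of activated T cells, read 11.58, 11.59 and 11.58 with icilin and 11.16, 11.08 and 11.21 with vehicle. All icilin values were above all vehicle values, and the difference was 0.43 ± 0.06 (1.35-fold, adjusted p = 0.0172). The uniporter genes Slc43a1 and Slc43a2, whose products work without Slc3a2, had lower values with icilin. Slc43a2 read 6.26, 6.34 and 6.39 with icilin and 6.66, 6.64 and 6.58 with vehicle (-0.30 ± 0.07, adjusted p = 0.0691). Slc43a1 read 6.74, 6.70 and 6.90 with icilin and 7.04, 7.10 and 7.06 with vehicle, a difference of nearly the same size (-0.29 ± 0.07) whose adjusted p of 0.103 missed the limit. Neither uniporter gene had overlapping groups. The second light chain of this system, Slc7a8, was dim and did not pass (-0.16 ± 0.15).

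**Figure D2:**
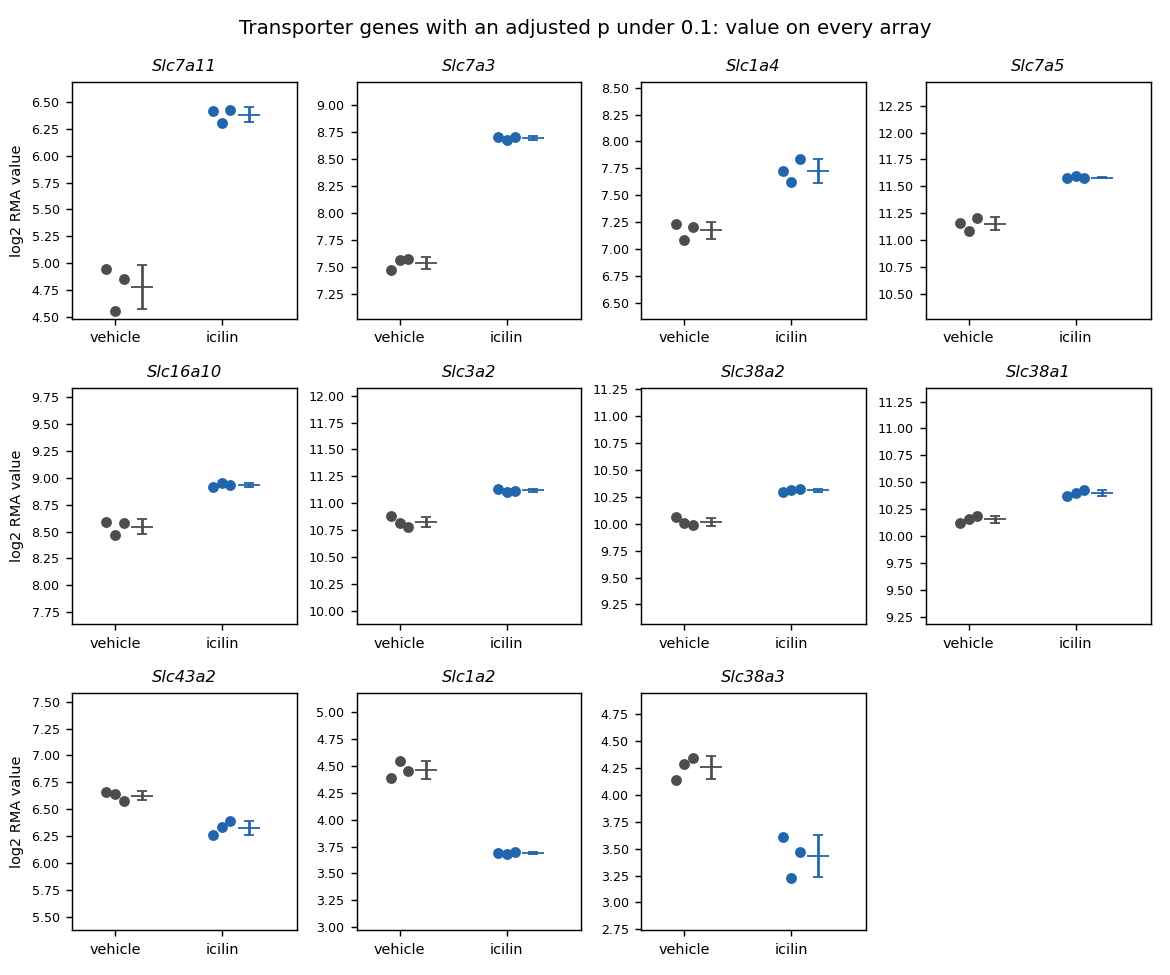
Log2 values on every array (points; vehicle grey, icilin blue) with group mean and SD (bars to the right) for the 11 transporter genes with an adjusted p under 0.1. Each panel spans the same number of log2 units around its own gene, so distances can be compared between panels and heights cannot; no panel has overlapping groups.

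The neutral exchangers of system ASC were both higher in value. Slc1a4, which carries alanine, serine and cysteine, read 7.72, 7.62 and 7.84 with icilin and 7.23, 7.08 and 7.20 with vehicle. The difference of 0.55 ± 0.08 (1.47-fold, adjusted p = 0.0175) was just under the fold limit. Without icilin replicate 2 (0.61) or without vehicle replicate 1 (0.59) the gene passed both limits. Slc1a5, the glutamine exchanger, read 10.67, 10.65 and 10.77 with icilin and 10.51, 10.46 and 10.51 with vehicle. Its groups did not overlap, but it did not pass (0.21 ± 0.06, adjusted p = 0.167), and a second probe set of the gene differed by 0.17 ± 0.08.

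In the Slc38 family 2 of 3 sodium-coupled importers of system A were higher at an adjusted p under 0.1, and 1 carrier of system N fell. Slc38a2, the system A gene known to respond to amino acid shortage, read 10.29, 10.31 and 10.33 with icilin and 10.06, 10.01 and 9.98 with vehicle (0.29 ± 0.06, adjusted p = 0.0510). Slc38a1 read 10.37, 10.40 and 10.43 with icilin and 10.12, 10.15 and 10.19 with vehicle (0.25 ± 0.06, adjusted p = 0.0915). The groups of both genes were apart by more than their spread, at about 1.2-fold. Slc38a4, another system A gene, was among the dimmest members, with overlapping groups (0.13 ± 0.15). The RefSeq annotation places Slc38a1, Slc38a2 and Slc38a4 next to each other among protein-coding genes, the only neighbours of this kind among the members.

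Slc38a3, a glutamine carrier of system N best known from liver, kidney and astrocytes, read 3.61, 3.22 and 3.47 with icilin and 4.14, 4.29 and 4.34 with vehicle. The highest icilin value was below the lowest vehicle value, and the gene was 1.77-fold lower (-0.82 ± 0.11, adjusted p = 0.0122). Slc38a5, also of system N, did not pass (0.16 ± 0.15) and had overlapping groups. The other 4 members of the family did not pass: Slc38a7, a lysosomal glutamine exporter gene (0.14 ± 0.13), Slc38a9, the lysosomal arginine sensor of mTORC1 (0.00 ± 0.07, 95% interval -0.17 to 0.17), Slc38a10 (-0.03 ± 0.09) and Slc38a6 (-0.07 ± 0.07).

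Of the sodium-driven glutamate and aspartate carriers (system X-AG), Slc1a2 fell. This gene encodes the main glutamate importer of astrocytes. It read 3.69, 3.68 and 3.70 with icilin and 4.38, 4.55 and 4.45 with vehicle. The icilin values were nearly equal (SD 0.01), and the gene was 1.71-fold lower (-0.77 ± 0.07, adjusted p = 0.00245). The neuronal and epithelial carrier gene Slc1a1 (0.24 ± 0.17) and the glial carrier gene Slc1a3 (0.05 ± 0.14) did not pass. All 3 probe sets, and that of Slc38a3, were dimmer than the median gene, at percentiles 41.8 for Slc1a2 and 37.3 for Slc38a3. The deposited table holds no detection calls, so whether such dim signal stands above the background of the array was not tested.

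Of the remaining carriers, 1 passed the adjusted p. Slc16a10, a facilitator of tryptophan, tyrosine and phenylalanine, read 8.91, 8.95 and 8.93 with icilin and 8.59, 8.46 and 8.58 with vehicle. All icilin values were higher, by 0.39 ± 0.06 (1.31-fold, adjusted p = 0.0266). The taurine carrier gene Slc6a6 read 9.24, 9.28 and 9.27 with icilin against 9.38, 9.43 and 9.43 with vehicle, without overlap and without passing (-0.15 ± 0.06, adjusted p = 0.261). The exchangers of cationic for neutral amino acids Slc7a6 (0.07 ± 0.07) and Slc7a7 (0.03 ± 0.08, 95% interval -0.16 to 0.22) had overlapping groups, as had the small neutral exchanger gene Slc7a10 (-0.03 ± 0.09). So had the Slc36 family genes Slc36a1 (0.14 ± 0.07) and Slc36a4 (-0.16 ± 0.10) and the mitochondrial glutamate carrier gene Slc25a22 (0.12 ± 0.08). The 2 probe sets of Slc36a4 differed in sign, with the dimmer one at 0.08 ± 0.06.

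**Figure D3:**
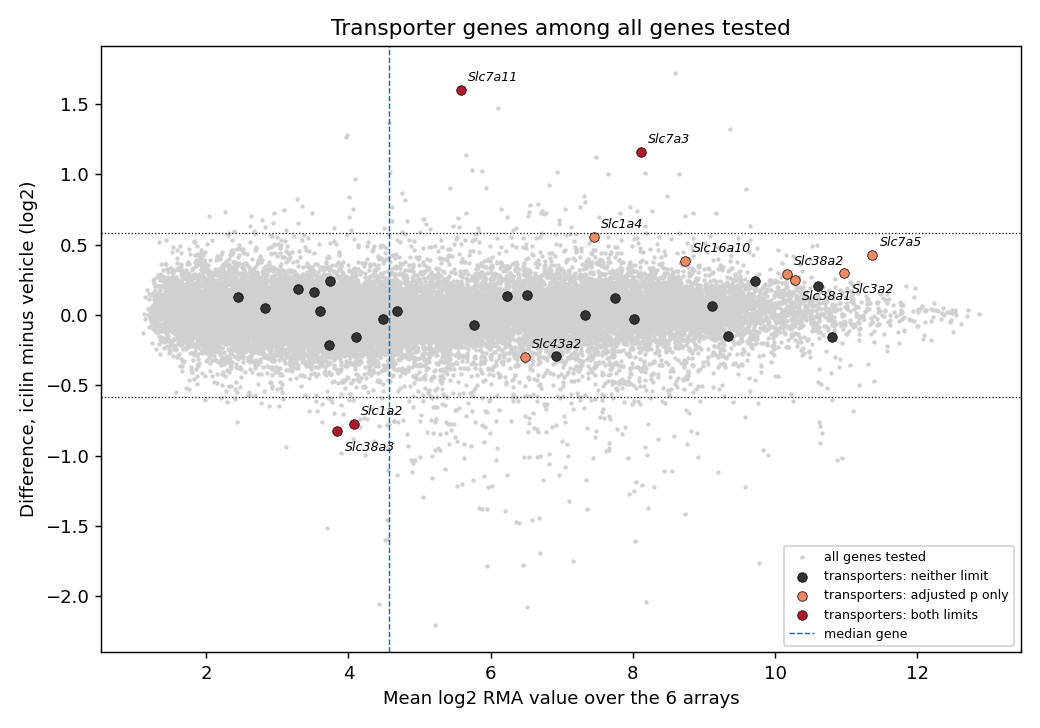
Log2 difference (icilin minus vehicle) against mean log2 value over the 6 arrays for all 22180 genes (grey) and the 33 transporter genes (large points); dotted lines mark 1.5-fold and the dashed line the median gene. The 2 called genes that rose are right of the median gene, and the 2 that fell are left of it.

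The median SE of a log2 difference was 0.07 for the 22 members brighter than the median gene (0.06 to 0.13) and 0.14 for the 11 dimmer ones (0.07 to 0.17). Of the 22 members that did not pass the adjusted p, 13 were bright, with differences of -0.29 to 0.24, and 9 were dim, with -0.21 to 0.24. Of the bright ones, 4 had an adjusted p under 0.1 in limma both with intensity-dependent, robust variances and with dim genes left out. The share of all genes under that limit was not counted at these settings, so the 4 cannot be set against it. These were Slc7a1 (adjusted p = 0.0136 and 0.0431), Slc1a5 (0.00681 and 0.0401), Slc43a1 (0.0228 and 0.0224) and Slc6a6 (0.0422 and 0.0755), all short of 1.5-fold.

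The 4 called members passed both limits on every set of 5 arrays, with differences of 1.48 to 1.68 for Slc7a11, 1.13 to 1.18 for Slc7a3, -0.81 to -0.73 for Slc1a2 and -0.91 to -0.72 for Slc38a3. The adjusted p of Slc7a5 and Slc1a4 also stayed under 0.1 on all 6 such sets. Slc16a10 missed it without icilin replicate 2 (adjusted p = 0.106). Slc3a2 and Slc38a2 kept it only without vehicle replicate 1, and Slc38a1 and Slc43a2 on none of the sets (adjusted p 0.163 to 0.238 and 0.123 to 0.202), while the sign of all these differences held.

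**Figure D4:**
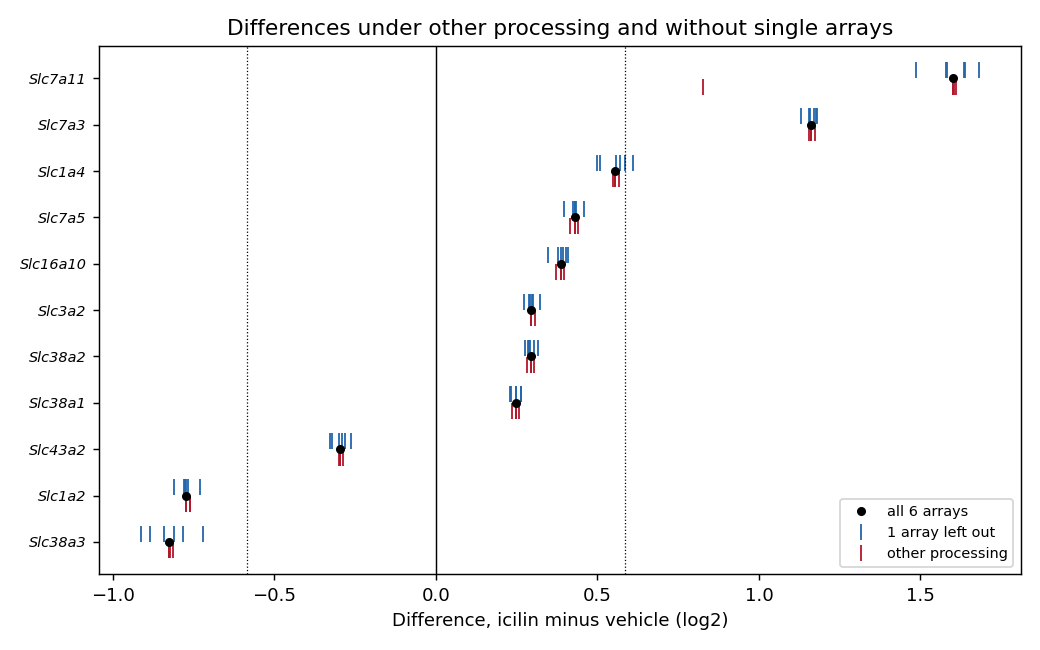
Log2 difference (icilin minus vehicle) of the 11 transporter genes with an adjusted p under 0.1, on all 6 arrays (black), with 1 array left out (blue) and under other processing (red); dotted lines mark 1.5-fold. All marks of a gene lie on 1 side of 0, and the red mark of Slc7a11 at 0.83 is the mean of its 2 probe sets.

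Further amino acid transporter genes were read from a second list of 39 genes, 25 of them dimmer than the median gene. Of these 1 fell, where 1.03% of all genes did: Slc15a3, a lysosomal carrier of histidine and small peptides. It read 5.01, 4.69 and 4.68 with icilin and 5.58, 5.50 and 5.55 with vehicle (-0.75 ± 0.10, adjusted p = 0.0127). All 3 icilin values were below those of the vehicle arrays. Limma and significance analysis of microarrays (SAM, the test of the study) both called 0 of the list higher; before adjustment, p was under 0.05 for 2 higher and 7 lower of the 39 genes. Over all genes tested, 9.09% were higher and 8.05% lower at that limit. Without the fold limit 2 were higher and 1 lower (2.27% and 3.00% of all genes), and the list median was 0.00. Picked out once their values were known, the 2 were the mitochondrial ornithine carrier gene Slc25a15 (0.50 ± 0.06) and the peptide carrier gene Slc15a2 (0.32 ± 0.07).

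The regulators of the amino acid response, in a list that also holds the enzyme genes Asns and Chac1, were read on the same arrays. Of 17 genes, all brighter than the median gene, 6 rose, where 0.370% of all genes did. Like the members and the other lists, these genes were chosen with earlier results of these data known. The shares therefore describe the list and are no test of it. The list median was 0.42. Limma and SAM called 0 lower, with 10 higher and 1 lower of the 17 at p under 0.05 before adjustment (9.09% and 8.05% of all genes). Trib3, a pseudokinase induced by ATF4, had the largest rise (1.00 ± 0.07), followed by Chac1, whose product breaks down glutathione (0.77 ± 0.09), and the transcription factor genes Cebpb (0.76 ± 0.12) and Atf5 (0.72 ± 0.07). Without the fold limit 10 passed, all higher, beside 2.27% of all genes and 3.89% of those brighter than the median gene. Also picked out by their values, Atf4 itself stood at 0.43 ± 0.07 (adjusted p = 0.0215), and Eif2ak4, the kinase that senses uncharged tRNA, at -0.10 ± 0.09 (adjusted p = 0.646). Atf3 was the 1 gene lower before adjustment (-0.18 ± 0.07, adjusted p = 0.230). Eif2ak3 (-0.13 ± 0.07) and Ppp1r15a (0.04 ± 0.08) did not pass either. Nupr1, the called gene with the smallest rise (0.60), was no longer called without icilin replicate 2, vehicle replicate 2 or vehicle replicate 3.

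Of 17 measured enzymes of cystine, cysteine and glutathione metabolism, 15 were brighter than the median gene. The 1 that rose, where 0.370% of all genes did, was Cth. It encodes the enzyme that makes cysteine from cystathionine. Cth read 9.20, 9.13 and 9.12 with icilin and 8.16, 8.05 and 8.23 with vehicle (1.00 ± 0.07, adjusted p = 0.00126). Without the fold limit 5 were higher, beside 2.27% of all genes and 3.89% of the brighter ones, with a list median of 0.17. Limma and SAM called 0 lower, with 9 higher and 0 lower of the 17 at p under 0.05 before adjustment, again beside 9.09% and 8.05% of all genes. Picked out in the same way, the other 4 were Gclm (0.49) and Gclc (0.30), the subunits of the enzyme that starts glutathione synthesis, the thioredoxin reductase gene Txnrd1 (0.48) and the heme oxygenase gene Hmox1 (0.42). Without vehicle replicate 3, Nqo1 was called as well (0.67).

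None of 19 measured enzymes that use arginine, glutamine, serine or branched-chain amino acids passed both limits in limma, nor in SAM. Before adjustment, p was under 0.05 for 8 higher and 2 lower genes of the 19, where 9.09% and 8.05% of all genes had such a p. Without the fold limit 3 were higher and 2 lower (2.27% and 3.00% of all genes, 3.89% and 5.13% of those brighter than the median gene). The list median was 0.08, and 17 of the 19 were brighter than the median gene. Gpt2, the mitochondrial alanine aminotransferase gene, had the smallest p (0.45 ± 0.07, adjusted p = 0.0200).

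**Figure D5:**
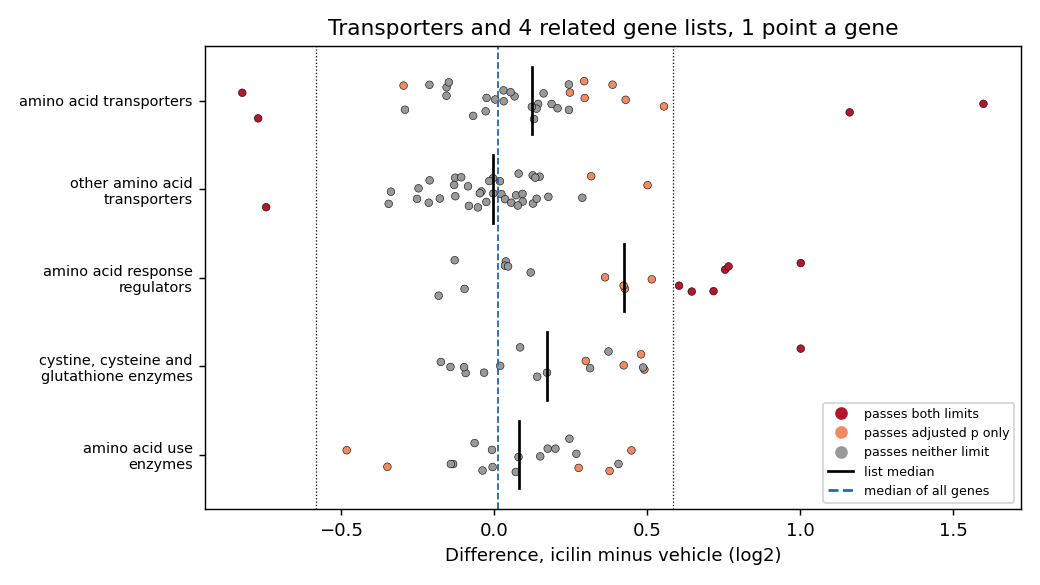
Log2 difference (icilin minus vehicle) of each gene (points, spread vertically for sight) in the transporter set and 4 related lists; black bars are list medians, the dashed line the median of all genes (0.01) and dotted lines 1.5-fold. The regulators have the highest median (0.42) and the second transporter list a median at 0.00. All 17 regulators but only 14 of the 39 genes of that second list are brighter than the median gene.

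Of 10 CD4 T cell markers 9 were measured; all 9 exceeded the median gene in brightness, and 7 lay above the percentile 90. Their summed linear level was 12064 to 12518 on icilin and 11952 to 12767 on vehicle arrays. Without the fold limit Cd28, the costimulatory receptor gene, was higher (0.34 ± 0.07, limma adjusted p = 0.0529). The groups were separated in 5 of the 9 (3 above, 2 below). Such a separation was seen in 24.1% of all genes and in 36.8% of those brighter than the median gene. Of 21 measured markers of other cell types 7 were brighter than the median gene and 1, the dendritic cell marker Cd209a, lay above the percentile 90. The summed level of the 21 was 880 to 983 with icilin and 888 to 931 with vehicle. The 20 without Cd209a summed to 445 to 480 with icilin and 396 to 429 with vehicle, without overlap. Of the 21, the B cell marker Ms4a1 rose (1.01 ± 0.10), and 20 did not pass. The B cell markers Cd79a (0.09 ± 0.07), Cd79b (-0.01 ± 0.12) and Pax5 (0.21 ± 0.09) were among those that did not. So was the CD8 T cell marker Cd8b1 (0.39 ± 0.12, limma adjusted p = 0.167), whose icilin values were all above its vehicle values. The other CD8 marker, Cd8a, had overlapping groups (0.01 ± 0.16). Of the 21 markers, the icilin arrays lay wholly above the vehicle arrays in 5 and wholly below in 4 (13.6% and 10.5% of all genes). The part of such cells in the transporter values was not tested.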

How the data were processed

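RNA from 3 icilin and 3 vehicle cultures was hybridised to Affymetrix Mouse Gene 2.0 ST arrays, 0.25 µg for each, with a minimum integrity number of 8. The deposited values are log2 intensities that the authors made by RMA, per the labels and the series design text. RMA makes arrays alike, which hides any shift shared by most genes, and differences of dim genes are compressed. Of 41345 probe sets, 23521 had 1 gene symbol, 1814 several and 16010 none by the array annotation; the brightest per gene over all arrays left 22180 genes. The build of that annotation is not given in the sources used here.

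Icilin was compared with vehicle by limma 3.58.1 in R 4.3.3 (4 residual and 3.07 prior degrees of freedom), two-sided, with Benjamini-Hochberg adjustment over all 22180 genes. A gene was called, and is said to have risen or fallen, at an adjusted p under 0.1 and at least 1.5-fold. Errors are SE from limma. The tests were repeated with robust, intensity-dependent variances, a block for replicate number, median centring, quantile normalization, dim genes removed, probe sets averaged per gene, all probe sets fitted, each array omitted in turn, SAM and other limits. Every member was named; of the 4 other lists up to 4 called genes in each direction, or the gene with the smallest p where none was called. The members and lists were chosen with earlier results of these data known. limma and significance analysis of microarrays (SAM, the study's own test, written anew) were tested on simulated data. Promoter sequences are from RefSeq (GRCm38.p6) and matched 27 of the 34 members by symbol; overlapping windows on opposite strands (1716 pairs) were checked to be reverse complements. Figures were made with Python 3.11.15 and matplotlib 3.10.9.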

Additional observations from a re-analysis of the deposited data

Results flagged for a closer look

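The probe set annotated to both Slc6a9, the glycine carrier gene on the member list, and Ccdc24 was outside the comparison because it names more than 1 gene. It stood out since its values were above those of the vehicle arrays: 6.73, 6.70 and 6.74 with icilin against 5.98, 6.25 and 6.08 with vehicle. The difference was 0.62 ± 0.09 (log2, SE; limma over all 41345 probe sets, adjusted p = 0.0491), past both limits of the study. Which of the 2 genes it reports cannot be told apart.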

How the results depend on the processing

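Slc7a3 and Slc7a11 were called higher under every alternative run. Slc1a2 and Slc38a3 were called lower under all but 1 of them; with genes dimmer than the median left out, both went untested and the count of transporters called lower was 0. With 1 array left out, 2 to 3 transporters were called higher and 1 to 2 enzymes of cystine, cysteine and glutathione metabolism. With no fold limit the counts called higher were 8 for the transporters, 2 for the second transporter list, 10 for the regulators, 5 for the cystine list and 3 for the amino acid use enzymes, of which 2 more were lower. No label ties a replicate number to a mouse, so the arrays were treated as unpaired. Deviations of same-numbered arrays correlated at -0.0051, -0.014 and -0.022, and no icilin array correlated best with its own number. Icilin arrays 1, 2 and 3 correlated best with vehicle arrays 2 (0.020), 3 (0.036) and 1 (0.026). These values concern the numbering only, and pairing by mouse was not tested. With the replicate number as a block, 2 transporters were still called higher and 2 lower, while those past the adjusted p alone went from 8 to 4 higher and from 3 to 2 lower. The latter were 10 and 5 with intensity-dependent, robust variances and 10 and 3 with dim genes left out, and 4 to 8 higher and 2 to 4 lower under the other alternatives fitted at the same limit. The share of all genes past the adjusted p alone was not counted under these alternatives. Shifts in the member counts are therefore not particular to transporters. Some differences near 0 changed sign without single arrays: Slc7a2 (-0.092 to 0.12), Slc7a7 (-0.036 to 0.076), Slc7a10 (-0.079 to 0.064), Slc1a3 (-0.026 to 0.20), Slc38a5 (-0.010 to 0.31), Slc38a10 (-0.10 to 0.049) and Slc38a9 (-0.034 to 0.051, and -0.0085 with quantile normalization). The cause was not tested. How far dim genes stand above background was not measured.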
